A study of Mus musculus with 8 samples.

Results

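The 10 genes described here mark committed preadipocytes of the ICAM1-positive type or serve the uptake and storage of lipid: Icam1, Vcam1, Lpl, Angptl4, Cd36, Fabp4, Plin2, Plin4, Apoe and Sparcl1. They were chosen by symbol from a deposited table of estimated read counts that lists 17967 symbols. All 10 were listed, and all 10 were among the 13694 genes that passed a filter on low counts. The RNA came from adipose-derived stem cells sorted by flow cytometry from collagenase-digested fat of male C57BL/6J wild type mice on chow diet, and was sequenced in bulk. The cells came from 3 depots, SWAT (subcutaneous fat of the inguinal region), EWAT (epididymal fat) and NWAT (perirenal fat), and 2 libraries of each were used. All 3 groups share strain, sex and diet, and differ in depot. The sources used here give neither the age of the mice nor the antibodies of the gate. Nor do they call the replicates separate animals or pools, so a p-value here weighs a difference against the spread of these libraries alone, which may be technical.

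Adipose stem cells give rise to adipocytes by way of committed preadipocytes, which in mouse fat carry the adhesion receptor ICAM1 and begin to express genes of lipid storage under the control of the nuclear receptor PPARG. Lipoprotein lipase, secreted by such cells, releases fatty acids from circulating triglyceride. The fatty acids are taken up through CD36, carried in the cytosol by FABP4, and stored as triglyceride in droplets that are coated by perilipins.

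The libraries held 20026413 to 20638724 estimated counts, over 15878 to 16252 detected genes. Levels are given as CPM, read counts relative to the library's total, scaled by TMM factors, which correct for differences in RNA composition, and the 10 genes are compared with one another only as the deposited FPKM, which divide by gene length. The stem cell label was checked against markers: Pdgfra lay between 936 and 1443 CPM and Cd34 between 1227 and 1672 CPM over the 6 libraries. The leukocyte marker Ptprc lay between 0.264 and 0.854 CPM, the endothelial marker Pecam1 between 3.96 and 8.63 CPM and the adipocyte marker Adipoq between 0.140 and 1.02 CPM. NWAT replicate 2 stood apart in 5 erythroid genes, which summed to 220 CPM there and to 7.68 CPM in NWAT replicate 1. Mesothelial markers (11 genes) summed to 3.51 and 4.27 CPM in SWAT, against 162 and 172 CPM in EWAT and 121 and 148 CPM in NWAT. Most of the EWAT and NWAT sums was Wt1, which was at 0 in both SWAT libraries, as were Muc16, Upk1b, Gpm6a and Bnc1. Most of the SWAT sum was Krt19, which ran the other way against EWAT. Krt19 had 3.18 and 3.11 CPM in SWAT, against 0.607 and 0.809 CPM in EWAT and 6.39 and 6.21 CPM in NWAT. Schwann cell markers (5 genes) summed to 18.1 and 26.1 CPM in SWAT, against 7.08 and 8.59 CPM in EWAT and 6.63 and 6.66 CPM in NWAT. The part of these cell types in the results was not tested. In bulk RNA, fewer cells of a type and less RNA per cell cannot be told apart, and this holds for every difference below.

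Plin4 had the largest differences among the 10 genes, in favour of SWAT, and Icam1, Lpl and Cd36 were also higher in SWAT than in either other depot. Apoe was highest in EWAT and lowest in NWAT, and Vcam1 was lower in SWAT than in EWAT. Fabp4, Plin2 and Angptl4 passed the test in no pair of depots, as 52.6% of all tested genes did. Throughout, a gene passed when its p in edgeR's quasi-likelihood test, with Benjamini-Hochberg adjustment over all 13694 genes, was under 0.05. The 3 comparisons share libraries and are not independent.

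In SWAT against EWAT, 6 of the 10 genes passed, where 36.7% of all tested genes did. Of these, 4 were higher in SWAT (18.0% of all genes) and 2 were lower (18.7% of all genes). In SWAT against NWAT, 6 of 10 passed, where 18.9% of all genes did, and each of the 6 was higher in SWAT (9.07% of all genes) and 0 were lower (9.83% of all genes), likewise 0 at an unadjusted p under 0.05 in edgeR, 0 in DESeq2 and 0 in limma on log2 (FPKM + 1). In EWAT against NWAT, 3 of 10 passed, close to the 27.3% of all genes, with 2 higher in EWAT (13.3% of all genes) and 1 lower (14.0% of all genes). Plin4 and Apoe passed in all 3 pairs, as 5.41% of all genes did. The joint test of the 3 depots was passed by 7 of 10, where 41.7% of all genes passed. The median log2 fold change of the 10 genes was 0.16 in SWAT against EWAT, 0.68 in SWAT against NWAT and 0.23 in EWAT against NWAT, beside medians of -0.009, -0.015 and 0.011 over all tested genes. The libraries of both depots did not overlap for 6 of the 10 genes in SWAT against EWAT, 7 in SWAT against NWAT and 7 in EWAT against NWAT, beside 69.9%, 63.1% and 65.5% of all tested genes.

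The scaling bears on every comparison with SWAT. Of the genes that passed, 49.1% were higher in SWAT against EWAT and 48.0% in SWAT against NWAT with TMM factors. With library totals alone these shares were 20.9% and 18.9%, because the median of all genes moved by -0.24 and -0.19 on the log2 scale. Changes are reported relative to the TMM scale, and library totals would lower each SWAT value below by about that amount.

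**Figure D1:**
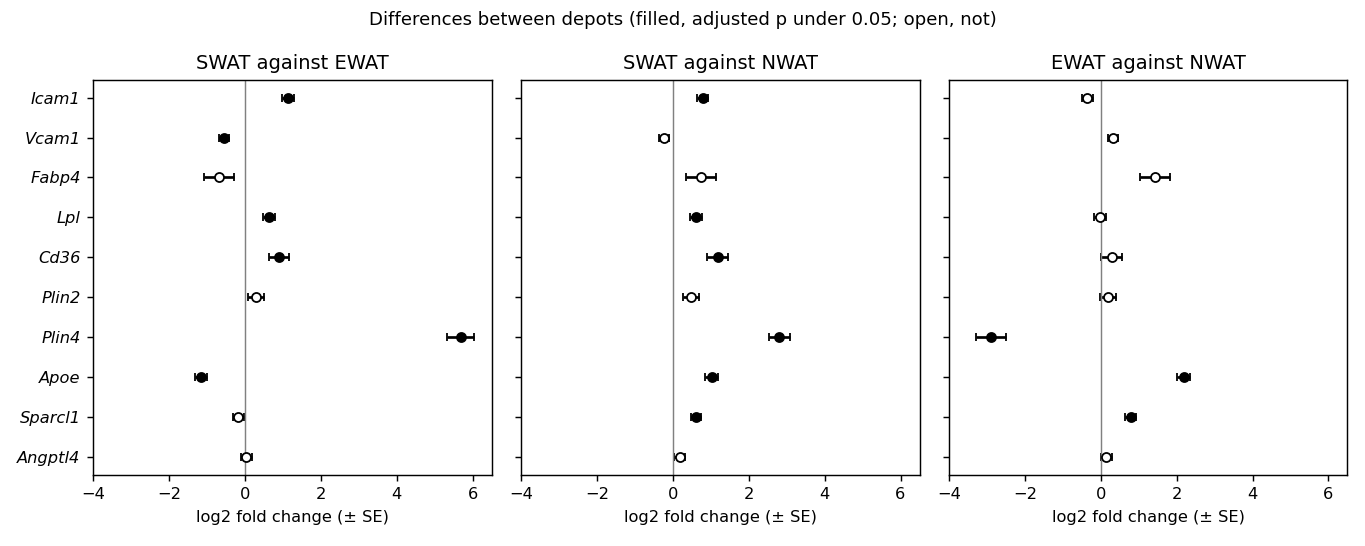
Log2 fold changes of the 10 genes with their SE in each pair of depots, from the fit to all 6 libraries. Filled points passed at an adjusted p under 0.05, and Plin4 lies farthest from 0 in each panel.

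The libraries of 1 depot also differed among themselves. All 10 genes were higher in SWAT replicate 2 than in SWAT replicate 1, as were 47.8% of all tested genes. The difference on the log2 scale was 1.08 for Fabp4, 0.89 for Cd36, 0.87 for Plin4 and 0.69 for Plin2, and these 4 lay above the 95th percentile of all tested genes, 0.61. It was smaller for Lpl (0.50), Angptl4 (0.43), Sparcl1 (0.39), Apoe (0.28), Icam1 (0.21) and Vcam1 (0.15). The summed CPM of the further lists of fatty acid uptake, triglyceride synthesis, droplet and lipolysis genes differed by log2 -0.044, -0.062, -0.098 and -0.032. For other PPAR target genes and other ICAM1-type preadipocyte markers the sums differed by log2 0.23 and 0.15. For the lipoprotein lipase control and apolipoprotein E receptor lists they differed by log2 -0.178 and 0.027. Such sums follow their abundant genes. Most of the uptake sum was Cavin1 (log2 -0.053), of the droplet sum Plin3 (-0.195), of the lipase control sum Pcsk6 (-0.349) and of the receptor sum Lrp1 (0.02). Scarcer genes of these lists moved in both directions, such as Sdc1 (log2 0.839), Hilpda (0.525) and Dgat2 (0.443), and Slc27a4 (-0.328) and Agpat5 (-0.284). No gene of the 10 lay above the 95th percentile of all tested genes in EWAT (0.54), where 9 of 10 were higher in replicate 2, or in NWAT (0.47), where 7 of 10 were. Genes with more reads vary less: among the 4954 genes whose log2 CPM averaged 5 or more, the 95th percentile was 0.22 in SWAT and 8 of the 10 lay above it, against 2 in EWAT and 3 in NWAT. The sum of 10 mature adipocyte markers was 18.0 CPM in SWAT replicate 2 and 17.7 CPM in replicate 1, that of 16 macrophage and monocyte markers 36.6 CPM and 26.0 CPM, and that of 14 endothelial markers 269 CPM and 303 CPM. Most of the endothelial sum was Tek, with 223 CPM in replicate 2 and 260 CPM in replicate 1. The other endothelial markers moved in both directions, such as Vwf (log2 0.435) and Cldn5 (log2 -0.484). The part of these cell type markers in the spread was not tested.

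**Figure D2:**
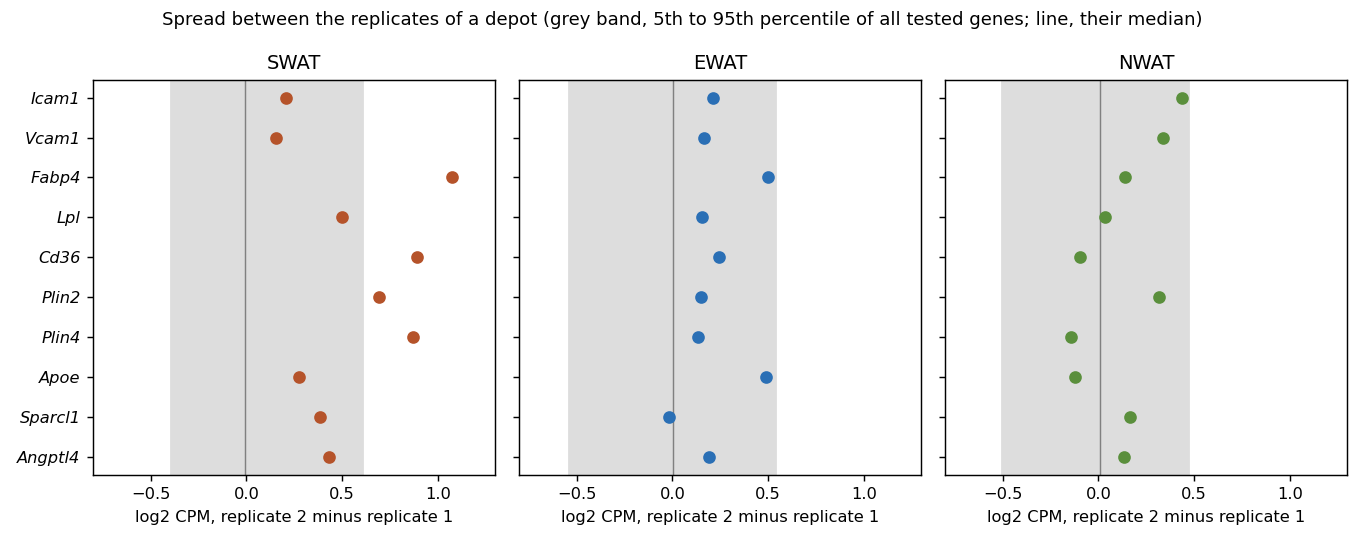
Difference in log2 CPM between the replicates of each depot for the 10 genes, with the 5th to 95th percentile of all tested genes as a grey band. In SWAT every point lies right of 0 and Fabp4, Cd36, Plin4 and Plin2 lie outside the band, whereas in EWAT and NWAT all points lie inside it.

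Per gene length, Lpl was the most abundant of the 10, with a mean of 420 FPKM over the 3 depots and rank 125 of the 13694 tested genes. Sparcl1 followed with 307 FPKM, Apoe with 198 FPKM, Fabp4 with 146.5 FPKM (rank 394) and Angptl4 with 121 FPKM. Icam1 averaged 75.5 FPKM and Plin2 63.6 FPKM, Vcam1 35.2 FPKM and Cd36 22.9 FPKM. Plin4 was the least abundant, with 4.13 FPKM and rank 8512, and had the widest range of the 10, from 0.20 to 13.5 FPKM over the libraries. Lpl, Apoe and Fabp4, of lipid hydrolysis and carriage, thus stood above the droplet coat genes Plin2 and Plin4 in FPKM. The fatty acid uptake gene Cd36 stood below Plin2.

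**Figure D3:**
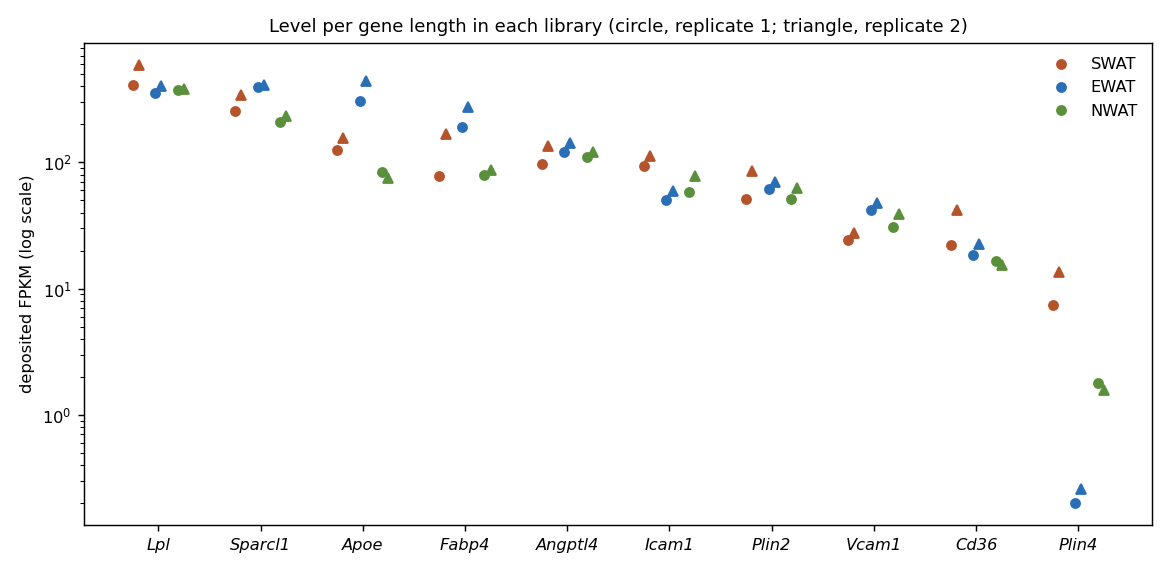
Deposited FPKM of the 10 genes in each library on a log axis, ordered by their mean over the 3 depots. Lpl lies at the top with 357 to 596 FPKM, and the depots separate most for Plin4.

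Promoter sequence is shown for Icam1, Plin4 and Apoe, the 3 genes whose differences between SWAT and each other depot passed under every processing alternative tried. RefSeq promoters on GRCm38.p6 matched 5 of the 10 genes (Icam1, Cd36, Plin2, Plin4 and Apoe), with 3 windows for Apoe, of which the most upstream is shown. The 250 bases before an annotated transcript start are given, 5′ to 3′ on the strand of the gene, at chr9:21015690-21015939 (plus strand) for Icam1, chr17:56109783-56110032 (minus strand) for Plin4 and chr7:19699189-19699438 (minus strand) for Apoe. Capitals mark a match to GGAAATTCC, a spelling of the NF-kB site that was added after the Icam1 window had been read.
Icam1: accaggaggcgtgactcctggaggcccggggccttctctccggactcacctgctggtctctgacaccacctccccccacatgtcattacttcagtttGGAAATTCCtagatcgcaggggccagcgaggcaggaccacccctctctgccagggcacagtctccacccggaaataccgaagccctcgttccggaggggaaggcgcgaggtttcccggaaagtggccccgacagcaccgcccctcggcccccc
Plin4: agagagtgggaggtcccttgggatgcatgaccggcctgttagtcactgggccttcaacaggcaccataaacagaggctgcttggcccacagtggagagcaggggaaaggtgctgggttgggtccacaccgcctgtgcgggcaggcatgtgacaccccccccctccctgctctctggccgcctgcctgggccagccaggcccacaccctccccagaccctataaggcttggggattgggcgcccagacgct
Apoe: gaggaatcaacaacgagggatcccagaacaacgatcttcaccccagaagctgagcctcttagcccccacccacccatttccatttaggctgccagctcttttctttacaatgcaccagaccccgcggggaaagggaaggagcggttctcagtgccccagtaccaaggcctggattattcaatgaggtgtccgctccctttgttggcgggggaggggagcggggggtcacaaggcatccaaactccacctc
The match lies 153 to 145 bases before the Icam1 start, and 0.286% of 32817 RefSeq promoter windows of the same length hold these letters on either strand. Because the spelling was added with this window already read, its match was fixed in advance, and that share gives it no weight. A longer NF-kB consensus, held by 1.41% of windows, was not in the 3 windows shown, nor were the PPAR/RXR direct repeat (0.338% of windows), the C/EBP site TTGCNNAA (9.57%), the palindrome of the glucocorticoid receptor (0.387%), the hypoxia element ACGTG (16.6%) or the TATA box TATAAA (12.4%). Of the Apoe windows not shown, the one at chr7:19698622-19698871 holds TATAAA on both strands, between 100 and 91 bases before its start. These are matches of letters only. The GC content was 65.2% in the Icam1 and Plin4 windows and 57.2% in the Apoe window.

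Icam1 codes for an adhesion receptor bound by leukocyte integrins and lies on chromosome 9 (21015940 to 21028814, plus strand, GRCm38.p6). It had 268 and 309 CPM in SWAT, against 122 and 141 CPM in EWAT and 143 and 193 CPM in NWAT. Both SWAT libraries were above all others, and both EWAT libraries were below both NWAT libraries. Icam1 was 2.20-fold higher in SWAT than in EWAT (log2 1.14 ± 0.15 SE, edgeR adjusted p = 0.000157) and 1.72-fold higher than in NWAT (log2 0.78 ± 0.15 SE, edgeR adjusted p = 0.00354). EWAT and NWAT, the lower neighbours in the order, did not pass (log2 -0.355 ± 0.15 SE, edgeR adjusted p = 0.101), but did without NWAT replicate 1 (log2 -0.555, edgeR adjusted p = 0.0374). An antisense gene, Gm47079, covers 511 exonic bases of Icam1, and the strand setting of the counts is not given, so its reads cannot be told apart from those of Icam1.

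Vcam1, on chromosome 3 (116110020 to 116129688, minus strand), codes for the related receptor bound by integrin alpha 4. Its order was the reverse of that of Icam1: 92.3 and 103 CPM in SWAT, against 135 and 152 CPM in EWAT and 102 and 129 CPM in NWAT. The SWAT libraries were below both EWAT libraries and overlapped those of NWAT. Vcam1 was 1.47-fold lower in SWAT than in EWAT (log2 -0.55 ± 0.13 SE, edgeR adjusted p = 0.00587). This call was lost without SWAT replicate 1 (log2 -0.48, edgeR adjusted p = 0.0668). Neither SWAT against NWAT (log2 -0.24 ± 0.13 SE, edgeR adjusted p = 0.232) nor EWAT against NWAT (log2 0.31 ± 0.13 SE, edgeR adjusted p = 0.0899) passed. The first did with library totals (log2 -0.43, edgeR adjusted p = 0.0319), and the second without EWAT replicate 1 or NWAT replicate 2 (log2 0.40 and 0.49, edgeR adjusted p = 0.0441 and 0.0474). Per length, Icam1 exceeded Vcam1 3.89-fold and 4.04-fold in the SWAT libraries, against 1.21-fold and 1.25-fold in EWAT and 1.88-fold and 2.01-fold in NWAT, so the ratio was closest to 1 in EWAT and largest in SWAT. Gm43109, antisense to Vcam1, covers 61 of its exonic bases, with the same limit.

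**Figure D4:**
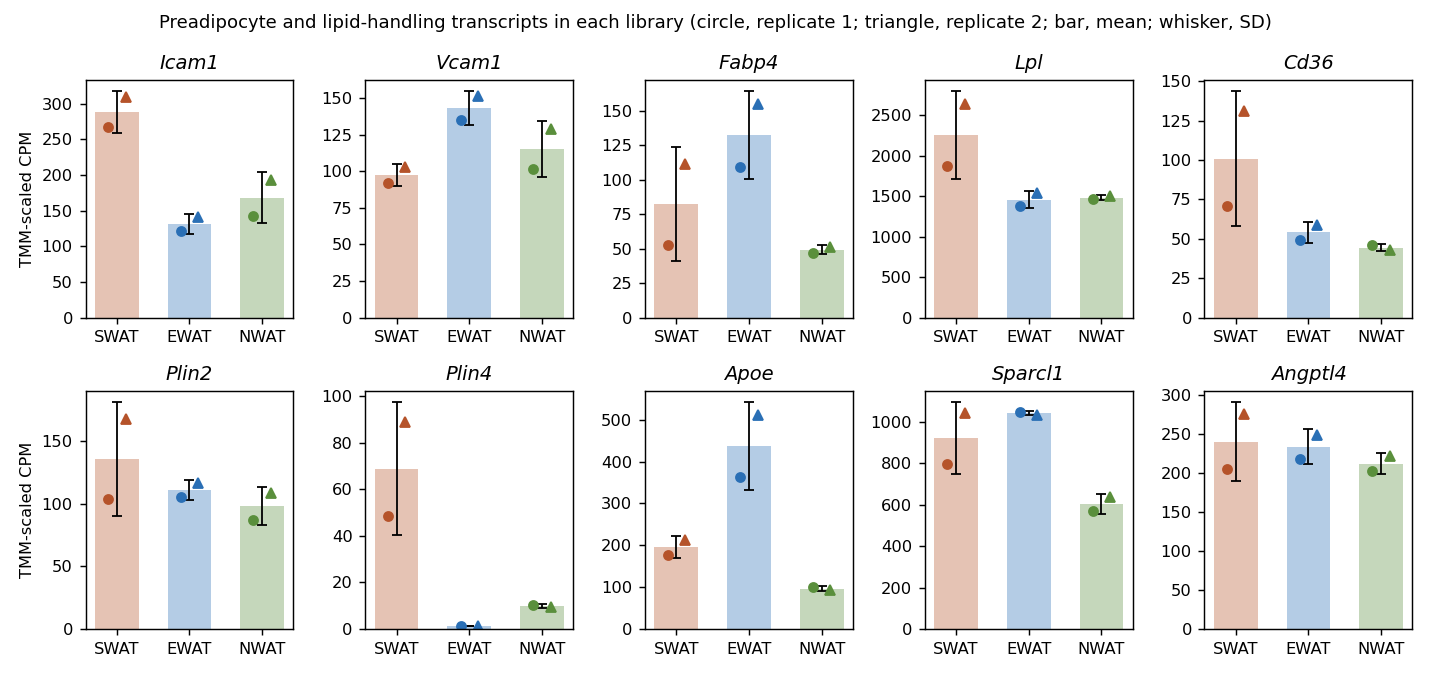
TMM-scaled CPM of each gene in every library, with the mean and SD of the 2 libraries of a depot. Plin4 reaches 48.6 and 89.1 CPM in SWAT beside 1.26 and 1.39 CPM in EWAT, and Apoe is highest in EWAT.

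A further list of genes taken here as markers of ICAM1-type preadipocytes was split. Whether each of them marks that cell type in these data was not tested. Genes of this and the further lists that are named as higher or lower passed the same edgeR test. The counts of each list stand beside these shares of all tested genes. In SWAT against EWAT 18.0% were higher and 18.7% lower, in SWAT against NWAT 9.07% and 9.83%, and in EWAT against NWAT 13.3% and 14.0%. Of 10 markers, 5 were higher and 3 lower in SWAT than in EWAT, with a median log2 fold change of 0.56, and 5 were higher and 1 lower in SWAT than in NWAT, with a median of 0.50. Pparg, the main adipogenic transcription factor, had 36.8 and 49.3 CPM in SWAT, against 16.6 and 21.5 CPM in EWAT and 19.7 and 25.1 CPM in NWAT, and was higher in SWAT in both comparisons (log2 1.18 ± 0.18 and 0.94 ± 0.18 SE). The chemokine gene Cxcl14 was the marker with the largest rise in SWAT (log2 2.80 ± 0.13 SE against EWAT and 1.71 ± 0.12 against NWAT), and the basement membrane collagens Col4a1, Col4a2 and Col15a1 were higher in SWAT in both comparisons (log2 0.71 ± 0.13, 0.725 ± 0.13 and 0.40 ± 0.12 SE against EWAT). Fmo2, a flavin monooxygenase gene, was lower in SWAT than in EWAT (log2 -2.23 ± 0.14 SE), as were Ggt5 (log2 -0.71 ± 0.12 SE) and Cd9 (log2 -0.48 ± 0.125 SE). Dlk1, a preadipocyte marker, had 0.439 and 0.422 CPM in SWAT, against 1.91 and 1.31 CPM in NWAT, and was lower in SWAT (log2 -1.89 ± 0.44 SE). In EWAT against NWAT 4 markers were higher and 2 lower, with Fmo2 at the top (log2 2.45 ± 0.14 SE) and Dlk1 at the bottom, with 2 and 4 counts in EWAT against 40 and 27 in NWAT, and the median was 0.18.

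NF-kB is a transcription factor known to induce Icam1 and Vcam1. Of 16 genes it induces, 3 were higher in SWAT than in EWAT, close to the 18.0% of all genes, and 3 were lower (median log2 fold change 0.02), 4 were lower in SWAT than in NWAT (median -0.665), and 1 higher and 7 lower in EWAT than in NWAT (median -0.56). The 16 genes summed to 3640 and 2511 CPM in SWAT, against 2726 and 3015 CPM in EWAT and 4130 and 5762 CPM in NWAT. From SWAT replicate 1 to replicate 2 this sum changed by log2 -0.535, where Icam1 and Vcam1 changed by 0.21 and 0.15. The chemokine gene Cxcl10 was higher in SWAT than in EWAT (log2 2.05 ± 0.42 SE) and the adaptor gene Traf1 lower (log2 -3.54 ± 0.37 SE). Cxcl2, a neutrophil chemokine gene, was lower in SWAT than in NWAT (log2 -2.20 ± 0.29 SE), where Il6, Nfkbie and Relb were also lower (log2 -1.68 ± 0.23, -0.885 ± 0.16 and -0.445 ± 0.11 SE). In EWAT against NWAT Traf1 was higher (log2 2.37 ± 0.32 SE) and Cxcl10 lowest (log2 -2.96 ± 0.43 SE). Of 6 tested integrin partners of both receptors, Itgb7 was higher in SWAT than in EWAT (log2 6.56 ± 0.31 SE) and than in NWAT (log2 2.51 ± 0.21 SE), and was lower in EWAT than in NWAT (log2 -4.05 ± 0.36 SE). It had 46.1 and 33.0 CPM in SWAT, against 0.514 and 0.315 CPM in EWAT and 8.26 and 5.58 CPM in NWAT. Itgb2 and Itgb1 were lower in SWAT than in EWAT (log2 -1.75 ± 0.48 and -0.33 ± 0.11 SE), and Itgb2, the leukocyte beta subunit, had 0.219 to 1.31 CPM over all libraries and was higher in EWAT than in NWAT (log2 1.64 ± 0.46 SE). The median of the 6 was -0.59, 0.15 and 0.74 in the 3 comparisons.

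Lpl codes for lipoprotein lipase and lies on chromosome 8 (68880555 to 68906932, plus strand). It had 1867 and 2636 CPM in SWAT, against 1380 and 1533 CPM in EWAT and 1462 and 1499 CPM in NWAT. Both SWAT libraries were above all others, and the EWAT and NWAT libraries overlapped. Lpl was 1.55-fold higher in SWAT than in EWAT (log2 0.63 ± 0.16 SE, edgeR adjusted p = 0.00919) and 1.52-fold higher than in NWAT (log2 0.605 ± 0.16 SE, edgeR adjusted p = 0.0193). EWAT and NWAT did not differ beyond their spread (log2 -0.02, 95% interval -0.37 to 0.32). Without SWAT replicate 2 the SWAT differences were smaller, at log2 0.36 against EWAT (edgeR adjusted p = 0.110) and 0.34 against NWAT (edgeR adjusted p = 0.206). With library totals they were 0.39 and 0.42, with edgeR adjusted p of 0.0713 and 0.0806. Neither passed in limma on log2 (FPKM + 1) (limma adjusted p = 0.131 and 0.149), and the call against NWAT was also lost without either NWAT library (edgeR adjusted p = 0.108 and 0.0929).

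Angptl4, on chromosome 17 (33774900 to 33781575, minus strand), codes for a secreted inhibitor of lipoprotein lipase. It had 205 and 276 CPM in SWAT, against 219 and 250 CPM in EWAT and 203 and 222 CPM in NWAT. The libraries of all 3 depots overlapped. Its log2 fold change was 0.04 in SWAT against EWAT (95% interval -0.28 to 0.35), 0.18 in SWAT against NWAT (-0.135 to 0.50) and 0.14 in EWAT against NWAT (-0.17 to 0.46), and none passed. Differences of up to 0.50 on the log2 scale therefore lie within these intervals. Per length, Lpl exceeded Angptl4 4.24-fold and 4.44-fold in SWAT, against 2.94-fold and 2.86-fold in EWAT and 3.36-fold and 3.14-fold in NWAT, with both SWAT libraries above the rest.

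Among 10 tested genes that mature or control lipoprotein lipase, 2 were higher and 2 lower in SWAT than in EWAT (median log2 fold change 0.12), 1 higher and 2 lower in SWAT than in NWAT (median 0.44), and 2 higher and 1 lower in EWAT than in NWAT (median 0.17). Furin, a protease that cleaves the lipase and ANGPTL4, was higher in SWAT in both comparisons (log2 0.31 ± 0.10 and 0.46 ± 0.10 SE), as was Lmf1, the lipase maturation factor, against EWAT (log2 0.33 ± 0.12 SE). Pcsk5 was lower in SWAT than in EWAT (log2 -0.64 ± 0.11 SE) and than in NWAT (log2 -0.45 ± 0.11 SE). Pcsk6, a further convertase gene, was lower than in NWAT both in SWAT (log2 -1.05 ± 0.16 SE) and in EWAT (log2 -1.23 ± 0.16 SE). Apoc1, an apolipoprotein gene, was scarce, with 0.164 and 0.158 CPM in SWAT, against 0.607 and 2.11 CPM in EWAT and 0.143 and 0.0485 CPM in NWAT. Apoc1 was lower in SWAT than in EWAT and higher in EWAT than in NWAT, on 3 and 3 counts in SWAT, against 13 and 47 in EWAT and 3 and 1 in NWAT. Gpihbp1, the endothelial anchor of the lipase, lay between 0.243 and 1.03 CPM in all libraries and was higher in EWAT than in NWAT (log2 1.43 ± 0.47 SE).

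Cd36, the fatty acid transporter gene on chromosome 5 (17781690 to 17888959, minus strand), had 70.6 and 131 CPM in SWAT, against 49.5 and 58.6 CPM in EWAT and 45.9 and 42.9 CPM in NWAT. No depots overlapped, but the SWAT libraries lay far apart. Cd36 was 1.87-fold higher in SWAT than in EWAT (log2 0.90 ± 0.27 SE, edgeR adjusted p = 0.0416) and 2.27-fold higher than in NWAT (log2 1.18 ± 0.275 SE, edgeR adjusted p = 0.0281). EWAT against NWAT did not pass (log2 0.28 ± 0.275 SE, edgeR adjusted p = 0.496). The call against EWAT was lost in 8 of 16 processing alternatives, at log2 0.39 to 1.04. Without SWAT replicate 2, Cd36 was 0.39 log2 units higher in SWAT than in EWAT (edgeR adjusted p = 0.0811) and 0.67 higher than in NWAT. The call against NWAT was lost in 6 of 16 alternatives, in which the difference itself stayed at log2 1.14 to 1.23.

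Fabp4 codes for the fatty acid carrier of adipocytes and lies on chromosome 3 (10204342 to 10208616, minus strand). It had 52.9 and 112 CPM in SWAT, against 109 and 155 CPM in EWAT and 46.8 and 51.4 CPM in NWAT. SWAT replicate 2 reached the EWAT range, whereas SWAT replicate 1 was close to NWAT, and the EWAT libraries were both above those of NWAT. None of the comparisons passed: log2 -0.68 ± 0.39 SE in SWAT against EWAT (edgeR adjusted p = 0.251), 0.745 ± 0.40 in SWAT against NWAT (edgeR adjusted p = 0.299) and 1.43 ± 0.40 in EWAT against NWAT (edgeR adjusted p = 0.0634). The value in EWAT against NWAT passed in 7 of 16 processing alternatives, among them those that left out either SWAT library: it passed without SWAT replicate 1 (log2 1.43, edgeR adjusted p = 0.000119) and without SWAT replicate 2 (log2 1.43, edgeR adjusted p = 0.000114). Each SWAT library alone placed the depot differently. Without SWAT replicate 2, Fabp4 was lower in SWAT than in EWAT (log2 -1.32, edgeR adjusted p = 0.00108), and without SWAT replicate 1 it was 1.19 log2 units higher in SWAT than in NWAT (edgeR adjusted p = 0.00215). Per length, Fabp4 exceeded Cd36 3.52-fold and 4.03-fold in SWAT, against 10.3-fold and 12.2-fold in EWAT and 4.81-fold and 5.59-fold in NWAT.

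Endothelial cells also express Cd36 and Fabp4. The 14 endothelial markers summed to 303 and 269 CPM in SWAT, against 253 and 226 CPM in EWAT and 379 and 361 CPM in NWAT, and most of this was Tek (178 to 355 CPM). Of these markers, 3 were higher in SWAT than in EWAT, 5 higher and 1 lower in SWAT than in NWAT, and 4 higher and 1 lower in EWAT than in NWAT. The 1 lower in both comparisons with NWAT was Tek. The median log2 fold change of the 14 was 0.26, 0.80 and 0.63 in the 3 comparisons. The median marker was thus lower in NWAT than in SWAT or EWAT, whereas the sum was highest in NWAT. Pecam1 had 5.37 and 6.01 CPM in SWAT, against 5.18 and 8.63 CPM in EWAT and 3.96 and 4.12 CPM in NWAT. Their part in the levels of Cd36 and Fabp4 was not tested.

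Genes of fatty acid uptake and activation moved in both directions, as all tested genes did. Of all genes, 18.0% were higher and 18.7% lower in SWAT than in EWAT. Of 12 tested, 4 were higher and 2 lower in SWAT than in EWAT (median log2 fold change 0.29), 3 higher and 1 lower in SWAT than in NWAT (median 0.12), and 4 higher and 2 lower in EWAT than in NWAT (median 0.10). Slc27a3, a fatty acid transport protein gene, was highest against EWAT (log2 1.23 ± 0.17 SE) and Fabp5, the epidermal fatty acid binding protein gene, lowest (log2 -2.17 ± 0.28 SE). The caveolin gene Cav1 had 277 and 275 CPM in SWAT, against 149 and 165 CPM in EWAT and 60.4 and 74.7 CPM in NWAT, and was 2.03 ± 0.13 log2 units higher in SWAT than in NWAT. Cav2 and Slc27a1 were higher in SWAT than in NWAT as well (log2 1.14 ± 0.16 and 0.91 ± 0.13 SE), and Acsl4, an acyl-CoA synthetase gene, was lower (log2 -0.49 ± 0.11 SE). In EWAT against NWAT, Fabp5 was highest (log2 1.76 ± 0.26 SE) and Slc27a3 lowest (log2 -0.85 ± 0.17 SE). Fabp5 was thus highest in EWAT, the depot in which Fabp4 had its highest mean.

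Plin2, on chromosome 4 (86626910 to 86670217, minus strand), codes for the perilipin that coats droplets in most cell types. It had 104 and 168 CPM in SWAT, against 105.5 and 117 CPM in EWAT and 87.2 and 109 CPM in NWAT. The depots overlapped in every pair, and SWAT replicate 2 alone stood above the rest. Its log2 fold changes were 0.29 ± 0.21 SE in SWAT against EWAT (edgeR adjusted p = 0.319), 0.47 ± 0.21 in SWAT against NWAT (edgeR adjusted p = 0.170) and 0.18 ± 0.21 in EWAT against NWAT (edgeR adjusted p = 0.566). Without SWAT replicate 1 both SWAT differences passed (log2 0.59 and 0.78, edgeR adjusted p = 0.0213 and 0.00825), and without SWAT replicate 2 the difference from EWAT was -0.098. The symbol is listed on a further line with 0 to 4.46 counts per library, and adding those counts changed no call.

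Plin4, the perilipin gene on chromosome 17 (56100587 to 56109948, minus strand), codes for a coat protein of small nascent droplets. It had 48.6 and 89.1 CPM in SWAT, against 1.26 and 1.39 CPM in EWAT and 10.4 and 9.37 CPM in NWAT. The EWAT values rest on 27 and 31 counts. The 3 depots were fully separated, with SWAT above NWAT and NWAT above EWAT. Plin4 was 51.6-fold higher in SWAT than in EWAT (log2 5.69 ± 0.36 SE, edgeR adjusted p = 1.43e-05), which was rank 79 of all 13694 genes by size, and 6.98-fold higher in SWAT than in NWAT (log2 2.80 ± 0.28 SE, edgeR adjusted p = 0.000354). It was 7.40-fold lower in EWAT than in NWAT (log2 -2.89 ± 0.39 SE, edgeR adjusted p = 0.00142), a call lost without EWAT replicate 1 (log2 -2.82, edgeR adjusted p = 0.107) or EWAT replicate 2 (log2 -2.96, edgeR adjusted p = 0.169). On the log2 (FPKM + 1) scale, which understates changes of scarce genes, the differences were 3.17, 2.04 and -1.13. Plin4 shares 17 exonic bases with Hdgfl2 on the opposite strand.

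Per length, Plin4 stood at 0.145 and 0.159 times Plin2 in SWAT, against 0.00324 and 0.00375 times in EWAT and 0.035 and 0.0250 times in NWAT. The adipocyte perilipin Plin1 ran the other way, with 0.603 and 1.00 CPM in SWAT, against 2.06 and 6.38 CPM in EWAT and 3.01 and 4.08 CPM in NWAT, and was lower in SWAT than in EWAT (log2 -2.38 ± 0.57 SE) and than in NWAT (log2 -2.13 ± 0.58 SE). The 10 mature adipocyte markers, which include Plin1, summed to 17.7 and 18.0 CPM in SWAT, against 29.9 and 33.9 CPM in EWAT and 19.1 and 17.8 CPM in NWAT. Of 7 tested, 3 were lower in SWAT than in EWAT, 2 were lower in SWAT than in NWAT, and 3 were higher in EWAT than in NWAT. Most of the sum was Lipe, with 13.5 and 13.6 CPM in SWAT, against 21.1 and 21.2 CPM in EWAT and 11.7 and 9.46 CPM in NWAT. Adipoq had 0.219 and 0.316 CPM in SWAT, against 0.140 and 0.719 CPM in EWAT and 0.716 and 1.02 CPM in NWAT. The part of adipocyte RNA in the Plin4 level was not tested.

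Other genes of droplet formation were mixed. Of 6 tested, 1 was higher and 3 lower in SWAT than in EWAT (median log2 fold change -0.635), 1 higher and 1 lower in SWAT than in NWAT (median -0.17), and 2 higher in EWAT than in NWAT (median 0.34). Fitm2, which promotes droplet budding, was higher in SWAT than in EWAT and NWAT (log2 0.95 ± 0.14 and 0.98 ± 0.14 SE). Plin3 and the droplet protein gene Hilpda were lower in SWAT than in EWAT (log2 -0.62 ± 0.11 and -0.65 ± 0.19 SE). Hilpda and the seipin gene Bscl2 were higher in EWAT than in NWAT (log2 0.62 ± 0.18 and 0.37 ± 0.10 SE).

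Of 13 tested genes of triglyceride synthesis, 5 were higher and 2 lower in SWAT than in EWAT (median log2 fold change 0.09). In SWAT against NWAT, 0 of 13 passed in edgeR's test, with 7 at an unadjusted p under 0.05, 0 in DESeq2 and 2 in limma on log2 (FPKM + 1), and the median was 0.16. In EWAT against NWAT 3 were higher and 2 lower (median -0.03). The phosphatidate phosphatase gene Lpin1 was highest against EWAT (log2 0.43 ± 0.14 SE) and Gpam, the first acyltransferase of the pathway, lowest (log2 -1.03 ± 0.10 SE). Dgat2, a terminal acyltransferase gene, Gpam and Agpat5 were higher in EWAT than in NWAT (log2 0.92 ± 0.25, 0.88 ± 0.10 and 0.73 ± 0.14 SE), whereas Gpat3 and Agpat4 were lower (log2 -0.74 ± 0.20 and -0.44 ± 0.12 SE).

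Of 10 tested lipolysis genes, 2 were higher and 3 lower in SWAT than in EWAT (median log2 fold change -0.32), 1 higher and 3 lower in SWAT than in NWAT (median 0.03), and 2 higher and 2 lower in EWAT than in NWAT (median 0.06). G0s2, the inhibitor of adipose triglyceride lipase, had 14.6 and 14.1 CPM in SWAT, against 58.8 and 75.3 CPM in EWAT and 13.1 and 16.1 CPM in NWAT. It was lower in SWAT than in EWAT (log2 -2.23 ± 0.15 SE) and higher in EWAT than in NWAT (log2 2.20 ± 0.14 SE). Mgll, the monoglyceride lipase gene, was higher in SWAT than in EWAT (log2 1.29 ± 0.11 SE) and lower than in NWAT both in SWAT (log2 -0.51 ± 0.10 SE) and in EWAT (log2 -1.80 ± 0.11 SE). Lipe, the hormone-sensitive lipase gene, was lower in SWAT than in EWAT (log2 -0.64 ± 0.13 SE) and higher in EWAT than in NWAT (log2 0.99 ± 0.13 SE). Ces1d, a carboxylesterase gene, was lower in SWAT than in EWAT (log2 -1.83 ± 0.13 SE) and than in NWAT (log2 -2.82 ± 0.13 SE), and lower in EWAT than in NWAT (log2 -0.99 ± 0.11 SE). Adrb3, the beta-3 adrenergic receptor gene, lay between 0.105 and 0.573 CPM in all libraries and was lower in SWAT, with 2 and 2 counts, than in NWAT, with 0.573 and 0.484 CPM. Pnpla3 was higher in SWAT than in EWAT and NWAT (log2 1.43 ± 0.36 and 1.65 ± 0.37 SE). The main triglyceride lipase gene Pnpla2 had 28.4 to 32.4 CPM over all libraries and passed in no pair.

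Among target genes of the PPAR receptors other than the genes described here, more were lower than higher in SWAT. Of 14 tested, 1 was higher and 6 lower in SWAT than in EWAT (median log2 fold change -0.69), 1 higher and 5 lower in SWAT than in NWAT (median -0.42), and 4 higher and 1 lower in EWAT than in NWAT (median 0.20). Of all tested genes, 18.0% were higher and 18.7% lower in SWAT than in EWAT, and 9.07% higher and 9.83% lower than in NWAT. Plin1 was lowest in SWAT against NWAT. Pdk4 was lower in EWAT than in NWAT (log2 -1.06 ± 0.13 SE), where Pck1, Aqp7 and Acaa2 were higher in EWAT (log2 1.78 ± 0.48, 0.84 ± 0.26 and 0.44 ± 0.10 SE). This list shares Plin1, Pck1, Aqp7, Cidec and Adipoq with the adipocyte markers.

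Apoe, on chromosome 7 (19696244 to 19701310, minus strand), codes for a secreted lipid carrier that binds receptors of the LDL receptor family. It had 176 and 213 CPM in SWAT, against 364 and 511 CPM in EWAT and 100.2 and 91.8 CPM in NWAT. The 3 depots did not overlap, and EWAT was above SWAT and SWAT above NWAT. Apoe was 2.24-fold lower in SWAT than in EWAT (log2 -1.17 ± 0.16 SE, edgeR adjusted p = 0.00026), 2.03-fold higher in SWAT than in NWAT (log2 1.02 ± 0.16 SE, edgeR adjusted p = 0.00126) and 4.55-fold higher in EWAT than in NWAT (log2 2.19 ± 0.17 SE, edgeR adjusted p = 4.86e-06). It passed in all 3 pairs under all 16 processing alternatives.

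Macrophages also express Apoe, and the sum of their markers was highest in EWAT. The 16 macrophage and monocyte markers summed to 26.0 and 36.6 CPM in SWAT, against 62.0 and 61.0 CPM in EWAT and 35.5 and 30.9 CPM in NWAT. Of 15 tested, 9 were lower in SWAT than in EWAT, 1 was lower in SWAT than in NWAT, and 10 were higher in EWAT than in NWAT. Adgre1 had 0.329 and 0.369 CPM in SWAT, against 1.12 and 0.989 CPM in EWAT and 0.286 and 0.0485 CPM in NWAT, and C1qa had 0.384 and 0.580 CPM in SWAT, against 2.33 and 2.25 CPM in EWAT and 0.668 and 0.340 CPM in NWAT. Aif1 was at 0 counts in both SWAT libraries and in NWAT replicate 2, and Tyrobp in SWAT replicate 2 and NWAT replicate 2. Cd68 and Cd14 passed in no pair. Cd68 had 6.91 and 14.7 CPM in SWAT, against 14.7 and 12.3 CPM in EWAT and 11.9 and 13.3 CPM in NWAT. Cd14 had 5.54 and 4.96 CPM in SWAT, against 4.72 and 5.30 CPM in EWAT and 5.34 and 5.43 CPM in NWAT. The part of macrophage RNA in the Apoe level was not tested.

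**Figure D5:**
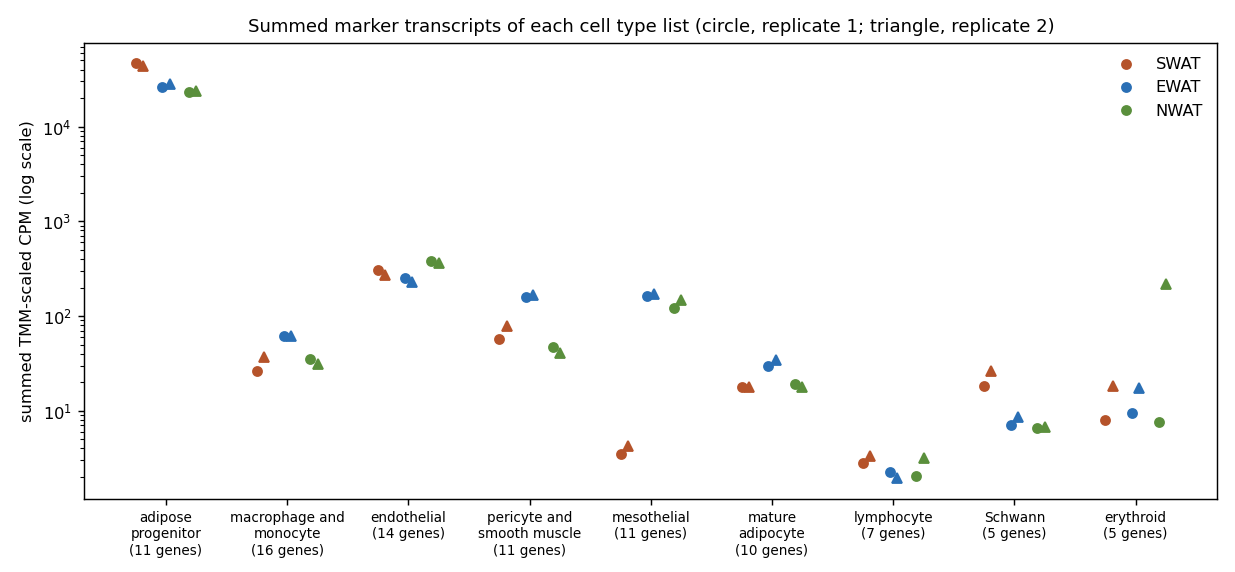
Summed TMM-scaled CPM of the marker list of each cell type in every library, on a log axis. Progenitor markers sum to 23070 CPM or more in every library, the macrophage, pericyte and mature adipocyte sums are highest in EWAT, and the mesothelial sum is lowest in SWAT.

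Of 15 tested genes that code for receptors of apolipoprotein E or serve cholesterol efflux, 6 were higher and 3 lower in SWAT than in EWAT (median log2 fold change 0.32), 7 higher and 1 lower in SWAT than in NWAT (median 0.525), and 7 higher and 2 lower in EWAT than in NWAT (median 0.03), where 36.7%, 18.9% and 27.3% of all genes passed in either direction. Abcg1, the cholesterol exporter gene, had 4.11 and 4.22 CPM in SWAT, against 0.467 and 0.584 CPM in EWAT and 0.525 and 0.728 CPM in NWAT, and was higher in SWAT in both comparisons (log2 2.97 ± 0.32 and 2.72 ± 0.32 SE). Lrp1, which codes for a large endocytic receptor, had 5534 and 5611 CPM in SWAT, against 3073 and 2488 CPM in EWAT and 4062 and 3684 CPM in NWAT. Its log2 fold change was 1.00 ± 0.14 SE in SWAT against EWAT and 0.525 ± 0.135 SE in SWAT against NWAT. Vldlr was the receptor gene lower in SWAT than in EWAT and NWAT (log2 -0.99 ± 0.12 and -0.62 ± 0.12 SE). Apoc1, a neighbour of Apoe in the lipoprotein gene cluster, was lowest against EWAT and highest in EWAT against NWAT, with the values given above, so it moved with Apoe in the 2 comparisons with EWAT. Mylip was lowest in EWAT against NWAT (log2 -0.99 ± 0.10 SE).

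Sparcl1, on chromosome 5 (104079108 to 104114088, minus strand), codes for a secreted matrix protein related to SPARC. It had 799 and 1044 CPM in SWAT, against 1048 and 1036 CPM in EWAT and 569 and 638 CPM in NWAT. NWAT was below both other depots, and SWAT replicate 2 was within the range of EWAT. Sparcl1 was 1.53-fold higher in SWAT than in NWAT (log2 0.61 ± 0.14 SE, edgeR adjusted p = 0.00991) and 1.73-fold higher in EWAT than in NWAT (log2 0.79 ± 0.14 SE, edgeR adjusted p = 0.00157). SWAT against EWAT did not pass (log2 -0.18 ± 0.14 SE, edgeR adjusted p = 0.344). With library totals that difference passed at log2 -0.41 (edgeR adjusted p = 0.0365). The call in SWAT against NWAT was lost without SWAT replicate 2 (log2 0.41, edgeR adjusted p = 0.119), without NWAT replicate 1 (log2 0.53, edgeR adjusted p = 0.0991) and on log2 (FPKM + 1) (0.40, limma adjusted p = 0.0953).

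Vascular mural cells also express Sparcl1. The 11 pericyte and smooth muscle markers summed to 57.4 and 78.6 CPM in SWAT, against 158 and 165 CPM in EWAT and 46.5 and 41.0 CPM in NWAT. Most of the EWAT sum was Des, with 90.9 and 95.8 CPM there, against 6.09 and 4.17 CPM in SWAT and 16.9 and 15.5 CPM in NWAT. Of 9 tested, 3 were higher and 6 lower in SWAT than in EWAT, 3 higher and 1 lower in SWAT than in NWAT, and 6 higher and 1 lower in EWAT than in NWAT. Kcnj8, Notch3 and Cspg4 were the 3 higher in SWAT than in EWAT (log2 2.93 ± 0.45, 1.68 ± 0.17 and 0.82 ± 0.25 SE), with Des among the 6 lower. The part of these cell type markers in the Sparcl1 level was not tested. Of 6 tested relatives of the SPARC family, 4 were higher and 1 lower in SWAT than in EWAT (median log2 fold change 0.61), 3 higher in SWAT than in NWAT (median 0.42), and 2 higher in EWAT than in NWAT (median -0.02). Sparc itself had 14640 and 14320 CPM in SWAT, against 6719 and 6877 CPM in EWAT and 6105 and 6567 CPM in NWAT, a difference of log2 1.09 ± 0.12 and 1.19 ± 0.12 SE. Spock2 was also higher in SWAT in both comparisons (log2 0.87 ± 0.10 and 0.72 ± 0.10 SE). Spock3 was higher in SWAT in both comparisons on few reads, with 36 and 47 counts in SWAT, against 2 and 2 in EWAT and 6 and 3 in NWAT. Fstl1 was 0.35 ± 0.12 log2 units higher in SWAT than in EWAT. Smoc1 was lower in SWAT than in EWAT (log2 -1.25 ± 0.29 SE), and in EWAT against NWAT Smoc1 and Smoc2 were higher (log2 1.34 ± 0.29 and 0.39 ± 0.11 SE). Sparc thus passed in both SWAT comparisons and not in EWAT against NWAT (log2 0.10 ± 0.12 SE). Sparcl1 passed in both comparisons with NWAT and not in SWAT against EWAT.

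Signs of handling and of hormone or oxygen responses were listed beside these genes, since Angptl4, Plin2 and Icam1 respond to such signals. Of 15 immediate-early genes that tissue digestion induces, 7 were higher and 2 lower in SWAT than in EWAT (median log2 fold change 0.135), 6 higher and 2 lower in SWAT than in NWAT (median 0.21), and 1 higher in EWAT than in NWAT (median 0.045). Fosb was highest (log2 1.16 ± 0.15 and 0.96 ± 0.15 SE) and Nr4a1 lowest (log2 -1.53 ± 0.125 and -1.45 ± 0.125 SE) in both SWAT comparisons, and Hspa1b, whose reads may be shared with Hspa1a, was higher in EWAT than in NWAT (log2 1.09 ± 0.21 SE). Their summed level was 49120 and 42330 CPM in SWAT, against 35920 and 32940 CPM in EWAT and 37800 and 35730 CPM in NWAT. Both SWAT libraries were above all others in this sum, as they were for Icam1, Lpl, Cd36 and Plin4, and its part in those results was not tested.

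Of 13 tested hypoxia-inducible genes, 3 were higher and 6 lower in SWAT than in EWAT (median log2 fold change -0.29), 1 higher and 3 lower in SWAT than in NWAT (median -0.07), and 2 higher and 2 lower in EWAT than in NWAT (median -0.04). Vegfa, the angiogenic factor gene, was highest in both SWAT comparisons (log2 1.58 ± 0.11 and 0.62 ± 0.10 SE), with Egln3 lowest against EWAT (log2 -1.41 ± 0.37 SE) and Ndrg1 lowest against NWAT (log2 -0.85 ± 0.11 SE). Adm and Slc2a1 were also lower in SWAT than in NWAT (log2 -0.63 ± 0.11 and -0.63 ± 0.11 SE). Bnip3 was highest in EWAT against NWAT (log2 0.98 ± 0.12 SE), with Hilpda also higher, and Vegfa (log2 -0.96 ± 0.105 SE) and P4ha1 (log2 -0.40 ± 0.13 SE) lower.

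Of 10 glucocorticoid-inducible genes, 1 was higher and 4 lower in SWAT than in EWAT (median log2 fold change -0.19), 1 higher and 3 lower in SWAT than in NWAT (median -0.16), and 1 higher and 1 lower in EWAT than in NWAT (median 0.21). Tsc22d3 was the gene higher in SWAT in both comparisons (log2 0.42 ± 0.10 and 0.54 ± 0.10 SE). Cebpd, an early adipogenic transcription factor gene, was lower in SWAT than in EWAT and NWAT (log2 -1.26 ± 0.14 and -0.89 ± 0.14 SE), as were the metallothionein genes Mt1 (log2 -0.85 ± 0.12 and -0.42 ± 0.12 SE) and Mt2 (log2 -0.60 ± 0.16 and -0.73 ± 0.16 SE). Fkbp5 was lower in SWAT than in EWAT (log2 -0.59 ± 0.11 SE). In EWAT against NWAT Mt1 was higher and Per1 lower (log2 0.43 ± 0.12 and -0.39 ± 0.13 SE).

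The genes most like each of the 10 over the 6 libraries were found by the Euclidean distance of centred log2 CPM among 10277 genes whose log2 CPM averaged 2 or more. The points share libraries, and the distances describe these libraries only. Plin4 had no close companion: Olfm2 was nearest at 1.07 and Cyp26b1, a retinoic acid hydroxylase gene, next at 1.13. Olfm2 had 31.8 and 52.2 CPM in SWAT, against 1.40 and 1.93 CPM in EWAT and 7.01 and 7.04 CPM in NWAT, so it shared the order of Plin4. Cd36 was nearest to Prkar2b (0.283), a regulatory subunit gene of protein kinase A, and to Mdk (0.467). Fabp4 was nearest to Arhgdib (0.573) and Hspa1b (0.586), and Apoe to Slc45a3 (0.459) and Vav3 (0.5). Sparcl1 was nearest to Trarg1 (0.162), which codes for a protein of glucose transporter trafficking, and to Exoc3l4 (0.219). Icam1 was nearest to Plppr3 (0.18) and Il11ra1 (0.204), Lpl to Zfp324 (0.14) and Zfp467 (0.144), and Plin2 to Slc5a3 (0.243) and Rab15 (0.25). Vcam1 and Angptl4, which varied least, had the nearest companions, Nip7 (0.075) and Snrnp27 (0.088) for Vcam1 and Nasp (0.121) and Zfp14 (0.13) for Angptl4. The nearest companion of each gene was not another of the 10, and the smallest distance between 2 of them was 0.369, between Plin2 and Angptl4.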

How the data were processed

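Bulk RNA-seq of 6 libraries was analysed. The authors deposited raw estimated counts for each gene symbol, of which 31.7% to 33.1% are not whole, and FPKM values that the authors scaled to gene length and library size, per the file headers. The submitters' processing notes name the build GRCm38.p6 and, with no role, Seurat and Cell Ranger. The sources used here do not give the aligner, counter, annotation or strand setting. Each of the tables held 2 columns that matched no label and were not used, so the mesenteric depot is not analysed here and its planned comparisons were not run.

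Counts were rounded, scaled by TMM and filtered with filterByExpr (count minimum 10, total minimum 15) in edgeR 4.0.16 under R 4.3.3. A robust quasi-likelihood model with 1 coefficient per depot left 3 residual degrees of freedom, with a common biological coefficient of variation of 0.0979. P-values were adjusted by Benjamini-Hochberg over 13694 genes at 0.05, intervals are 95%, and SD are over 2 libraries. Each SE is |log2 fold change| over the square root of F. DESeq2 1.42.0 and limma 3.58.1 on log2 FPKM with pseudocounts of 1 and 0.1 were alternatives. The scripts were tested on simulated data. Plin2 has 2 lines under its symbol, and the line with the higher total was used.

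The genes described and the gene lists were chosen with earlier results of these data known. All 10 genes are named, with the highest and lowest passing gene of each list in each comparison, each passing gene where 5 or fewer passed (some by symbol only), and the 2 genes most like each of the 10. Other list genes and the markers named were picked after their values were seen. Some lists share genes. Single values of 2 list genes are not reported here.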

Additional observations from a re-analysis of the deposited data

How the results depend on the processing

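The results of the 10 genes and the counts of passing genes were recomputed under 16 alternatives, of which 15 were planned and 1, the sum of both Plin2 lines, was chosen after seeing the data. The joint test had 15, without the fit to 2 depots, and the values of other list genes were not recomputed. Icam1 and Plin4 in both SWAT comparisons, Apoe in all 3 and Sparcl1 in EWAT against NWAT kept their direction and passed under all 16. The genes passing numbered 5020, 2588 and 3743 in SWAT against EWAT, SWAT against NWAT and EWAT against NWAT. Leaving out 1 library gave 3085 to 5672, 1467 to 3323 and 2129 to 4884. A lone library is then assumed to vary like the other depots. Of the 10 genes, 3 (without NWAT replicate 1) to 8 (without SWAT replicate 1) then passed in SWAT against NWAT, 5 to 6 in SWAT against EWAT and 2 to 4 in EWAT against NWAT. With library totals 3946 genes passed in SWAT against NWAT, and of the 10 genes 5 were higher and 1 lower there. The share of passing genes higher in EWAT than in NWAT was 48.8%, and 58.1% on log2 (FPKM + 1). There the shares higher in SWAT were 20.1% against EWAT and 20.4% against NWAT.

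Reversals concerned differences that did not pass. Angptl4 in SWAT against EWAT was -0.195 with library totals, -0.207 and -0.205 on log2 FPKM with pseudocounts of 0.1 and 1, and -0.19 (without SWAT replicate 2) to 0.24 (without SWAT replicate 1) when 1 library was left out, with -0.05 without EWAT replicate 1. In SWAT against NWAT it was -0.007, -0.024, -0.024 and, with 1 library left out, -0.048 to 0.38. Lpl in EWAT against NWAT was 0.023, 0.018, 0.018 and, with 1 library left out, -0.105 to 0.053. In SWAT against EWAT, with 1 library left out, Plin2 was -0.098 (without SWAT replicate 2) to 0.59 and Sparcl1 -0.38 to 0.002 (without SWAT replicate 1). The causes were not tested.

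Same-numbered libraries deviated together with correlations over genes of 0.001, 0.038 and 0.11, so the numbers were not taken as pairs. With a replicate block 6 of the 10 genes, against 3, passed in EWAT against NWAT, and 7 in each SWAT comparison. The calls gained were Icam1, Vcam1 and Fabp4 in EWAT against NWAT (edgeR adjusted p = 0.0364, 0.0405 and 0.00127), Fabp4 in SWAT against EWAT (0.0196) and Plin2 in SWAT against NWAT (0.032).

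Differences inside the 95% intervals of Angptl4 could not be resolved with 2 libraries per depot.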
